A study of Bos taurus with 54 samples.

Results

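The genes examined here were 10 genes of glucose uptake and glycolysis, chosen by symbol from the 32637 genes listed for every library: SLC2A1, SLC2A3, HK1, HK2, HK3, PFKFB3, PFKFB4, PGK1, PKM and LDHA. The libraries came from white blood cells of 15 Holstein male calves, since whole blood was treated with a red cell lysis buffer before RNA was isolated. Blood was drawn in the early morning before heat exposure (thermoneutral control) and in the evening, immediately after 12 h of heat (heat stress), so heat and the time of day cannot be told apart. The RNA was sequenced from its 3′ ends with 2 kits, QuantSeq of Lexogen and SMART-Seq v4 3′ DE of Takara, named Lexogen and Takara below. Each kit gave 13 thermoneutral control and 13 heat stress libraries, with both times for 12 calves. The calves received no other treatment that the labels name. The libraries of animal 20, whose time the sources give differently, were left out. The sample numbers form 2 separate series, run 1 with 8 calves and run 2 with 7, and each run holds both times.

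Glucose enters cells through transporters of the SLC2A (GLUT) family and is trapped by hexokinases, which add a phosphate group. PFKFB enzymes make and break down the bisphosphate that activates phosphofructokinase, the main control point of the pathway. PGK1 and PKM catalyse the steps that yield ATP, and LDHA turns pyruvate into lactate, which regenerates the NAD+ that glycolysis needs. Neutrophils, which have few mitochondria, are known to depend on this pathway for ATP, and lymphocytes raise it when they are activated.

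Reads counted on genes ranged from 5140595 to 20699030 per Takara library and from 4516761 to 58521751 per Lexogen library. The highest Lexogen total was that of the heat stress library of animal 15. The paper states that 1 Lexogen sample had far more reads because it was loaded at a higher concentration by mistake. Levels are counts per M counts on genes (CPM), scaled with TMM factors within each kit, and they are compared between samples and not between genes. Times were compared over 13 against 13 libraries with edgeR's quasi-likelihood test, and genes with a Benjamini-Hochberg adjusted p under 0.05 over all genes tested were called differentially expressed (DEGs). SE is the standard error of a log2 fold change. All 10 genes passed the filter on low counts in both kits. Markers of neutrophils, monocytes, T cells, B cells and platelets were detected in both kits, and 1 of 6 erythroid markers was at 0 in every Lexogen library used.

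In Takara libraries 6 of the 10 genes were up-regulated in heat stress: SLC2A3, PFKFB3, PFKFB4, PGK1, PKM and LDHA. None of the 10 was down-regulated. Of all 12620 genes tested in Takara, 28.9% were DEGs, 18.4% up-regulated and 10.5% down-regulated. The median log2 fold change was 0.92 over the 10 genes, which were chosen with earlier results of these data known, and -0.05 over all genes tested. A block model, with the animal added and 12 calves with both times, called the same 6 genes, and there 25% of 12651 genes were called. In Lexogen libraries 2 of the 10, SLC2A3 and PFKFB3, were up-regulated, against 5.55% of all 11108 genes tested (5.09% up-regulated and 0.459% down-regulated). The median log2 fold change there was 0.59 over the 10 genes and -0.08 over all genes. In the block model 0 of the 10 were DEGs in Lexogen by edgeR, and 0.568% of 11087 genes were called. There 2 of the 10 had an unadjusted p under 0.05, against 1584 of the 11087 genes. DESeq2 without the block called 3 of the 10 in Lexogen, PFKFB4 in addition, against 4.66% of 21596 genes. These 21596 include genes of low count that the filter before edgeR left out, so this share is not comparable with those of edgeR.

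**Figure D1:**
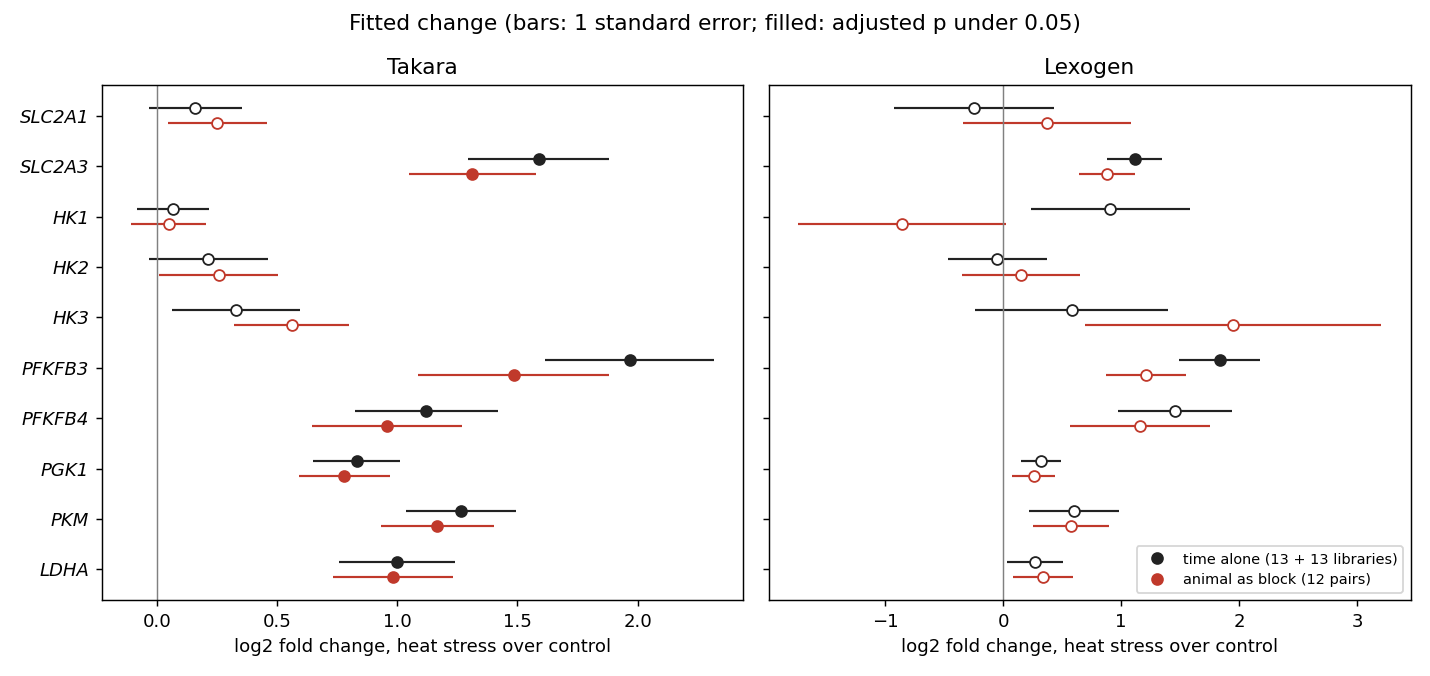
Fitted log2 fold change of each gene, heat stress over thermoneutral control, in Takara (left) and Lexogen (right); black is the model of time alone, red has the animal as a block, bars are 1 standard error and filled points have an adjusted p under 0.05. In Takara the 6 filled genes lie between 0.78 and 1.97 in both models, and in Lexogen the 2 filled genes lose the call with the block.

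SLC2A3 (GLUT3), a high-affinity glucose transporter, lies on chromosome 5 (101438340 to 101522167 of ARS-UCD2.0). In Takara control libraries it ran from 153 to 430 CPM with a median of 266. In heat stress it ran from 219 to 1546 CPM with a median of 656. The groups overlapped, and 7 of 13 heat stress libraries lay above every control. Its log2 fold change was 1.59 (SE 0.29, adjusted p = 0.000521, edgeR), and it was higher after heat in 12 of 12 calves, by 0.13 to 2.96 on the log2 scale. In Lexogen it ran from 110 to 260 CPM in control (median 180) and from 123 to 688 CPM in heat stress (median 391.6). In that kit 9 of 13 heat stress libraries lay above every control and 10 of 12 calves were higher, with a log2 fold change of 1.11 (SE 0.23, adjusted p = 0.00314, edgeR). With the animal as a block it was 0.88 in Lexogen (adjusted p = 0.0786, edgeR) and 1.31 in Takara (adjusted p = 0.0109).

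SLC2A1 (GLUT1), the widespread basal glucose transporter on chromosome 3 (103309108 to 103337308), had few counts, 12 to 88 per Takara library. Its Takara level was 2.06 to 6.09 CPM in control (median 3.22) and 2.11 to 5.79 CPM in heat stress (median 4.11), and the groups lay over each other. Its log2 fold change was 0.16 (SE 0.19, adjusted p = 0.552, edgeR), and 9 of 12 calves were higher. In Lexogen it had 0 to 967 counts per library, and the log2 fold change was -0.25 (SE 0.68, adjusted p = 0.91, edgeR). The highest value, 67.7 CPM, came from the control library of animal 19. Of the stranded gene counts in that library 11% were antisense, against a median of 5.38% over the Lexogen libraries, and 373 reads were antisense to SLC2A1. Without animal 19, an alternative added after seeing the data, the log2 fold change was 0.72 (adjusted p = 0.647).

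The log2 ratio of SLC2A3 to SLC2A1 within a library changed by 1.10 on average over the 12 Takara pairs (SD 1.32), with 8 of 12 calves higher. This gave p = 0.021 in an exact two-sided sign-change test (4096 sign changes) and 0.117 after Benjamini-Hochberg adjustment over the 10 ratio tests made, so it did not pass. In Lexogen the mean change was 0.55 (SD 2.05, exact p = 0.364, adjusted 0.607).

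**Figure D2:**
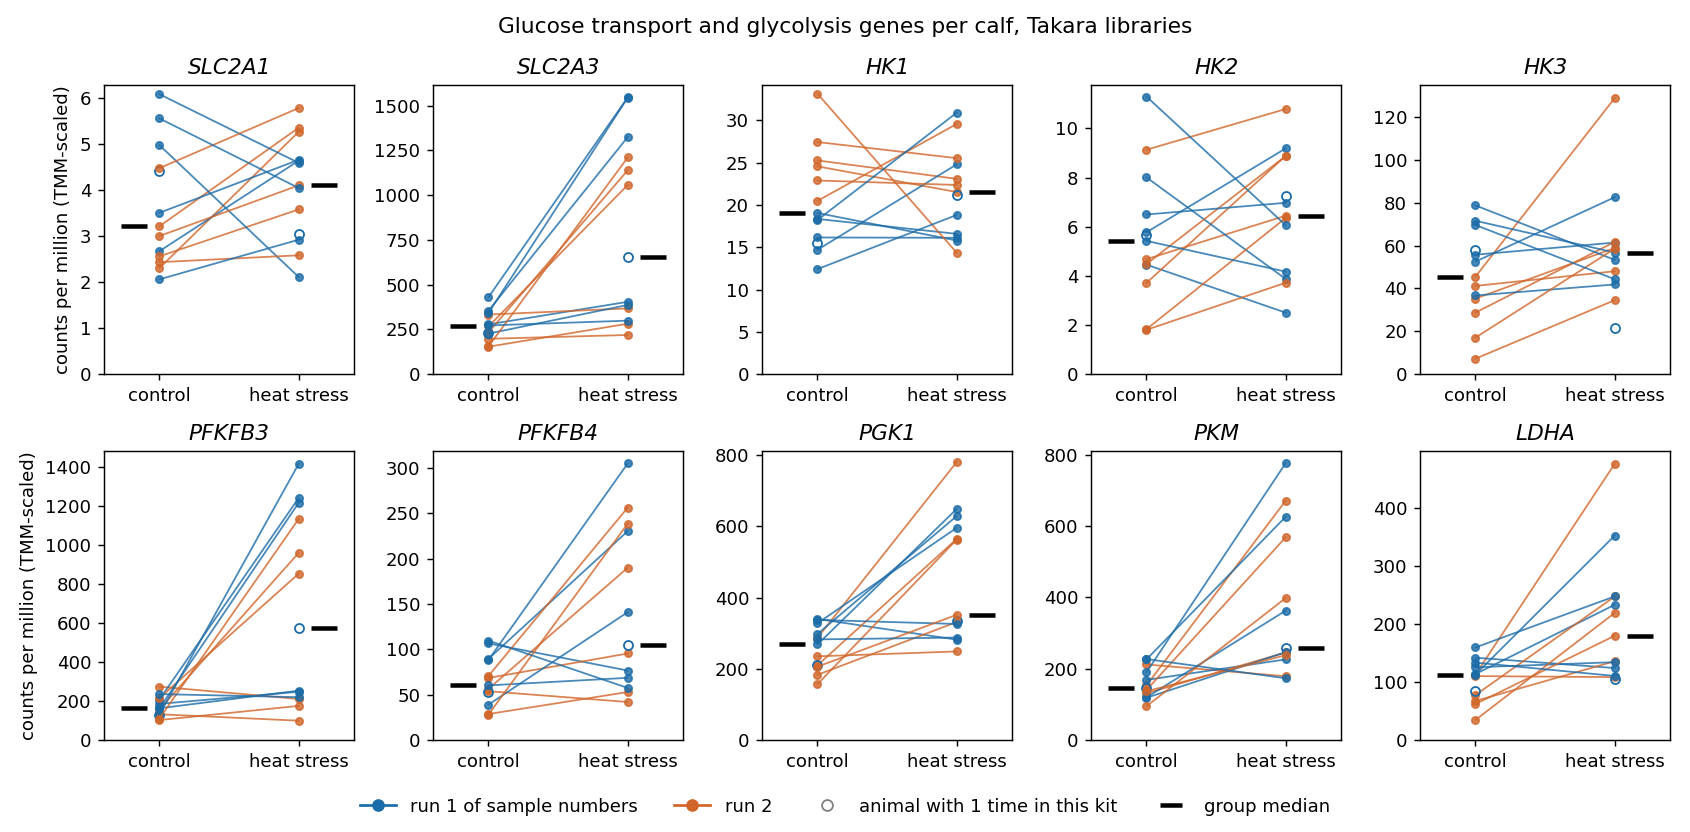
Level of each gene (TMM-scaled CPM, linear axes from 0) in Takara libraries, with a line joining the control and heat stress libraries of a calf; colours give the 2 runs of sample numbers, open circles are calves with 1 time, and black bars are group medians. SLC2A3 was higher after heat in 12 of 12 calves, and PFKFB3 after heat stood at 852 to 1415 CPM in 6 of these calves and at 99.2 to 253 CPM in the other 6.

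PFKFB3, the isoenzyme with the highest ratio of kinase to phosphatase activity and so a strong activator of glycolysis, lies on chromosome 13 (17098741 to 17372190). It had the largest log2 fold change of the 10 genes in both kits in the model of time alone. In Takara it ran from 102 to 273 CPM in control (median 162) and from 99.2 to 1415 CPM in heat stress (median 575). In heat stress 7 of 13 libraries lay above every control and 1 lay below every control. The log2 fold change was 1.97 (SE 0.35, adjusted p = 0.000457, edgeR). The block model gave 1.49 (adjusted p = 0.0177). It was higher after heat in 9 of 12 calves, and in animals 3, 14 and 41 it was lower.

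In Lexogen PFKFB3 ran from 128 to 340 CPM in control (median 185) and from 108 to 1885 CPM in heat stress (median 352), with 7 of 13 heat stress libraries above every control. The log2 fold change was 1.84 (SE 0.34, adjusted p = 0.00143, edgeR), 10 of 12 calves were higher, and with the block it was 1.21 (adjusted p = 0.0924). PFKFB3 overlaps PRKCQ over 1357 bp and a long non-coding RNA gene over 920 bp, and 14.1% of its stranded counts in Takara were antisense. The sense column gave 1.95 in Takara and 1.84 in Lexogen.

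The calves were ranked by their Takara PFKFB3 change and split in the middle into an upper and a lower 6. In animals 7, 15, 16, 18, 36 and 40 the paired log2 change was 1.99 to 3.43, and in the other 6 calves it was -0.41 to 0.77. The same 6 calves had the 6 largest changes of SLC2A3, PFKFB4, PGK1 and PKM, and 5 of them were among the 6 largest for LDHA. For HK1 the number was 4 of 6, for HK3 3, and for HK2 and SLC2A1 2 each. Each run of sample numbers gave 3 of these calves. In Lexogen animals 7 and 15 had no pair. Animals 16, 18, 36 and 40 had PFKFB3 changes of 1.87 to 3.27 there, and the 6 lower Takara calves -0.79 to 1.10. Animals 23 and 29, paired in Lexogen alone, had 0.31 and 1.87. Ranked by Lexogen values, the upper and lower 6 calves met at 1.10 and 0.94, with animals 19 and 29 in the upper 6. The counts of shared calves compare genes within the same libraries, and the groups of 6 were described after the values were seen.

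PFKFB4, an isoenzyme of PFKFB3 on chromosome 22 (51321978 to 51363427), ran from 28 to 110 CPM in Takara controls (median 60.2) and from 42 to 305 CPM in heat stress (median 104). In heat stress 6 of 13 libraries lay above every control, and 9 of 12 calves were higher. The log2 fold change was 1.12 (SE 0.30, adjusted p = 0.00637, edgeR). In Lexogen it was 1.46 (SE 0.48, adjusted p = 0.0719), with 1.87 to 41 CPM in control and 5.79 to 120 CPM in heat stress. It passed in Lexogen with DESeq2 (adjusted p = 0.0286). The log2 ratio of PFKFB4 to PFKFB3 changed by -0.53 on average in Takara pairs (SD 0.69, rising in 3 of 12), with an exact p of 0.0234 and 0.117 after adjustment. In Lexogen pairs the ratio changed by 0.0089 (SD 2.04, rising in 6 of 12, exact p = 0.989).

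The hexokinases commit glucose to the cell, HK1 as the housekeeping form and HK2 as the form that varies with stimulation, while HK3 is expressed in myeloid cells. None of these 3 genes was a DEG in either kit by edgeR or DESeq2, and in the model of time alone 0 had an unadjusted p under 0.05 with edgeR. HK2 (chromosome 11, 9741445 to 9810551) ran from 1.80 to 11.3 CPM in Takara controls and from 2.5 to 10.8 CPM in heat stress, with a log2 fold change of 0.21 (SE 0.25, adjusted p = 0.533, edgeR). In Lexogen it was -0.05 (SE 0.42, adjusted p = 0.976). HK2 was higher after heat in 2 of 6 run 1 calves and in 6 of 6 run 2 calves in Takara, and run 2 alone gave 0.82 (unadjusted p = 0.047, adjusted p = 0.176, edgeR).

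HK3 (chromosome 7, 38332935 to 38352397) ran from 7.21 to 78.7 CPM in Takara controls (median 45.5) and from 21.7 to 129 CPM in heat stress (median 56.7). Its log2 fold change was 0.33 (SE 0.26, adjusted p = 0.356, edgeR). The block model gave 0.56 (unadjusted p = 0.0315, adjusted p = 0.0915), and in run 2 alone the unadjusted p was 0.00913 (adjusted p = 0.0732). It was higher after heat in 3 of 6 run 1 calves and 6 of 6 run 2 calves. In Lexogen it had a log2 fold change of 0.58 (SE 0.82, adjusted p = 0.797), and 2 control libraries and 1 heat stress library had no count. The sense column held 3 to 29 counts in these 3 libraries, so the unstranded 0 sets no upper limit on HK3 there. By sense counts the Lexogen medians were 6.81 CPM in control and 8.12 CPM in heat stress, with a log2 fold change of 0.26 (SE 0.52, adjusted p = 0.861, edgeR).

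HK1 (chromosome 28, 25655622 to 25768164) ran from 12.4 to 33.1 CPM in Takara controls (median 19.1) and from 14.3 to 30.9 CPM in heat stress (median 21.5). Its log2 fold change was 0.07 (SE 0.15, adjusted p = 0.757, edgeR), and 4 of 12 calves were higher. In Lexogen it was 0.91 (SE 0.67, adjusted p = 0.547) and -0.85 with the animal as a block (adjusted p = 0.709). There the heat stress library of animal 12 stood apart at 57.9 CPM, against a median of 4.57 CPM, and the change without it was not computed.

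HK1 and HK3 were the genes with fewer unstranded than sense counts. The unstranded column leaves out reads that fall on 2 overlapping genes, and HK1 overlaps TACR2 over 8212 bp and HKDC1 over 216 bp, while HK3 overlaps UNC5A over 30 bp. PGK1 overlaps TAF9B over 13038 bp and LDHA overlaps a long non-coding RNA gene over 2821 bp. Neither had fewer unstranded than sense counts over all libraries of a kit. The part of the overlaps in these counts was not tested. For HK1 the unstranded count was 44% of the sense count in Takara and 28.3% in Lexogen. For HK3 it was 76.2% and 43.4%. For the other 8 genes it lay between 100.1% and 121% over all libraries of a kit, but single Lexogen libraries went higher. The control library of animal 19 held 302 CPM of PKM by the unstranded and 158 CPM by the sense count, and the heat stress library of animal 23 held 28.2 and 13.1 CPM of HK2. Sense counts gave PKM a log2 fold change of 0.85 in Lexogen (SE 0.34, unadjusted p = 0.0171, adjusted p = 0.153, edgeR), which did not pass. By sense counts the median level of HK1 was 45.2 CPM in control and 48.3 CPM in heat stress in Takara, with a log2 fold change of 0.01 (SE 0.13, adjusted p = 0.947, edgeR). In Lexogen sense counts gave HK1 a log2 fold change of 0.12 (SE 0.32, adjusted p = 0.902).

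**Figure D3:**
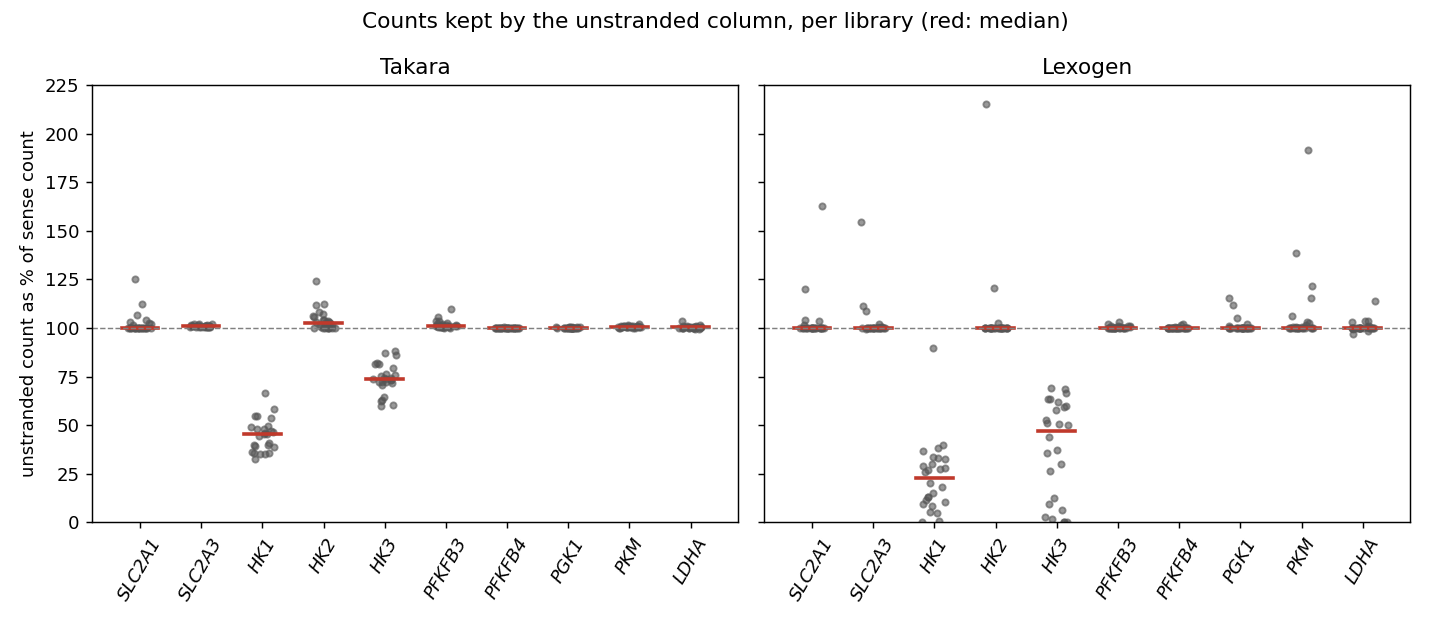
Unstranded count as a percentage of the sense count of each gene (vertical axis) in each library, Takara left and Lexogen right, with the median in red and a dashed line at 100. HK1 and HK3 lie below the line in Takara, with medians of 45.5% and 73.8%, while the medians of the other genes are at or just above it.

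PGK1, phosphoglycerate kinase, forms the first ATP of the pathway and lies on chromosome X (74244892 to 74267571). In Takara it ran from 157 to 340 CPM in control (median 268) and from 249 to 780 CPM in heat stress (median 352), with 7 of 13 heat stress libraries above every control. The log2 fold change was 0.83 (SE 0.18, adjusted p = 0.00152, edgeR), and 10 of 12 calves were higher. In Lexogen it was 0.32 (SE 0.17, adjusted p = 0.346), with 101 to 201 CPM in control and 88.8 to 274 CPM in heat stress.

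PKM, pyruvate kinase, makes pyruvate and the last ATP of the pathway (chromosome 10, 19137913 to 19164576). In Takara 10 of 13 heat stress libraries lay above every control, the most of the 10 genes. It ran from 94.9 to 227 CPM in control (median 147) and from 173 to 777 CPM in heat stress (median 259). The log2 fold change was 1.27 (SE 0.23, adjusted p = 0.000484, edgeR), and 10 of 12 calves were higher. In Lexogen it was 0.60 (SE 0.38, adjusted p = 0.46), with medians of 36.4 and 80.6 CPM. The control library of animal 19 held 302 CPM by unstranded counts, the highest Lexogen value of PKM in either group, of which 158 CPM were sense. By sense counts the highest library was the heat stress library of animal 15 at 292.5 CPM. Without animal 19, an alternative added after seeing the data, the log2 fold change was 1.21 (adjusted p = 0.0163, edgeR) and PKM was a DEG in Lexogen, where 4.99% of all genes were called. Without animal 15 it was 0.29 (adjusted p = 0.777), so the Lexogen value of PKM moved with single animals in both directions. The heat stress library of animal 15, the deepest one, also held the highest CPM of SLC2A3, PFKFB3 and PFKFB4 among the Lexogen libraries used. With animal 15 left out, SLC2A3 and PFKFB3 were still DEGs in Lexogen, where 454 of all 11213 genes were called.

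LDHA, the lactate dehydrogenase subunit that favours lactate, lies on chromosome 29 (26290889 to 26302946). In Takara it ran from 34.6 to 160 CPM in control (median 112.9) and from 106 to 476 CPM in heat stress (median 180), with 7 of 13 heat stress libraries above every control. The log2 fold change was 1.00 (SE 0.24, adjusted p = 0.00324, edgeR), and 9 of 12 calves were higher. In Lexogen it was 0.27 (SE 0.24, adjusted p = 0.633), with medians of 95.3 and 93.1 CPM. LDHB, the other main subunit, had a log2 fold change of 0.75 in Takara (adjusted p = 0.00154), and the log2 ratio of LDHA to LDHB changed by 0.28 in pairs (SD 0.53, exact p = 0.0981, adjusted 0.327). In Lexogen pairs this ratio changed by 0.084 (SD 1.00, exact p = 0.753, adjusted 0.837). The ratios of HK2 and HK3 to HK1 also did not pass, with exact p of 0.143 or more in either kit.

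**Figure D4:**
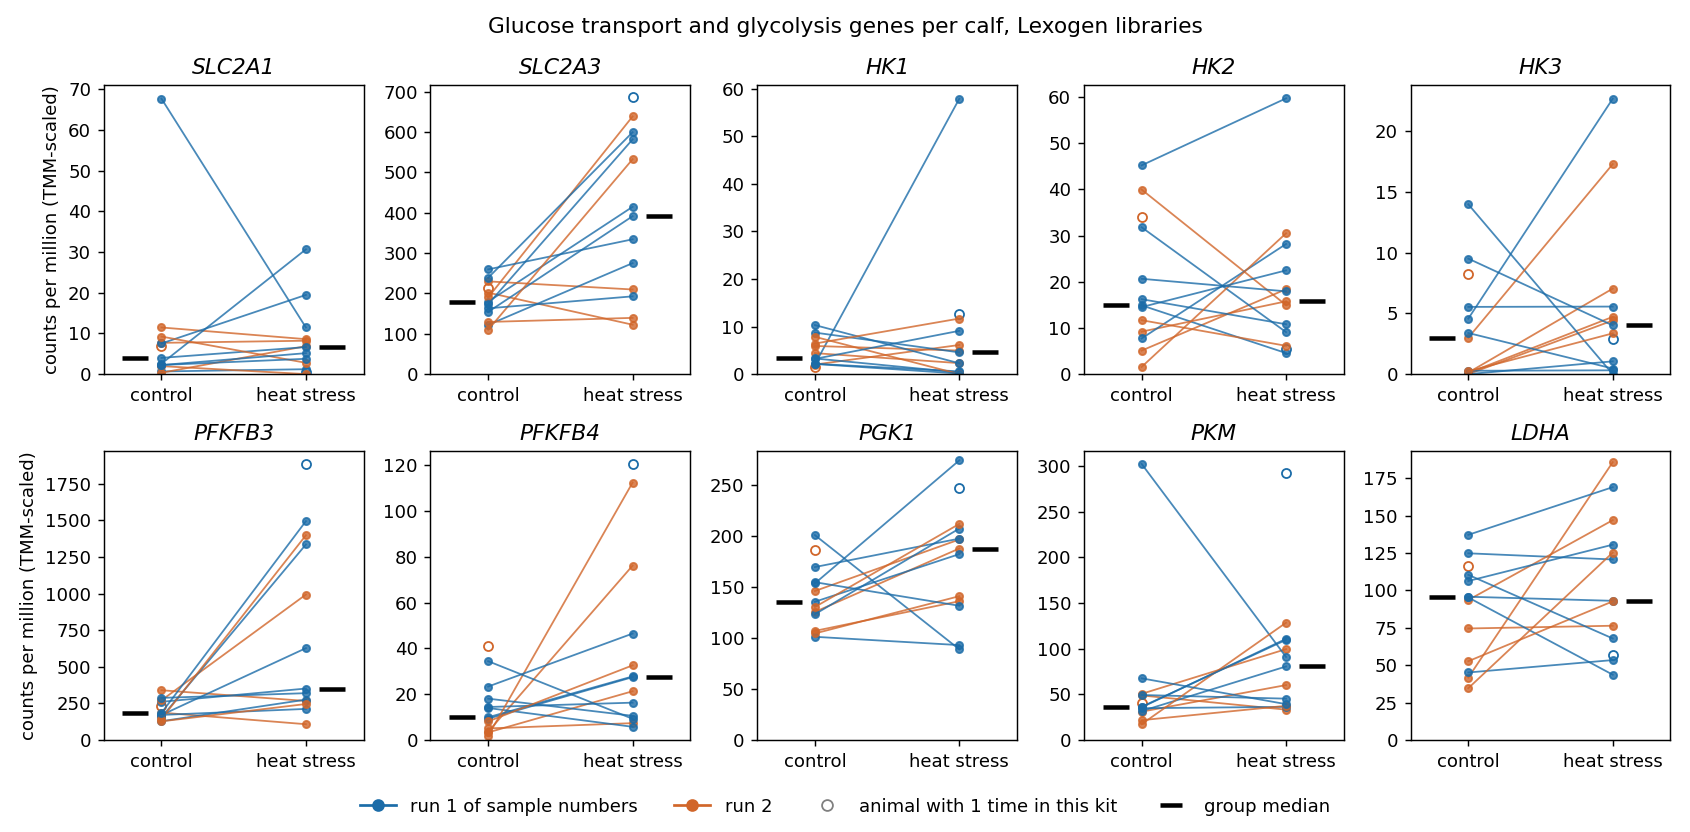
Level of each gene (TMM-scaled CPM, linear axes from 0) in Lexogen libraries, drawn as for Takara with a line per calf, colours for the runs of sample numbers, open circles for calves with 1 time and black bars for medians. SLC2A3 and PFKFB3 were higher after heat in 10 of 12 calves each, and 1 control library stood apart in SLC2A1 and PKM.

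Most neutrophil markers were also higher in heat stress. The summed level of 10 neutrophil markers ran from 4296 to 19801 CPM in Takara controls (median 11547.5) and from 3794 to 109649 CPM in heat stress (median 42519), and it was higher in 10 of 12 calves. Of the 9 markers tested 8 were up-regulated in Takara and 6 of 8 in Lexogen, and no marker of the list was at 0 throughout. The marker not called in Takara was CSF3R, the receptor of the neutrophil growth factor G-CSF, with a log2 fold change of 0.51 (adjusted p = 0.164, edgeR). S100A8, S100A9 and S100A12, abundant proteins of neutrophil cytosol, made up 81.8% to 94.7% of the sum in Takara heat stress libraries (median 91.6%), so the sum follows these 3 genes. The 7 Takara heat stress libraries with the highest sums, all at 42519 CPM or more against 24942 CPM or less in the others, were also the 7 highest in SLC2A3, PFKFB3, PFKFB4 and PKM. For PGK1 and LDHA 6 of the 7 were shared, for HK1 5, for HK3 and SLC2A1 3 each, and for HK2 2. In Lexogen the sum had medians of 3595 CPM in control and 10495.5 CPM in heat stress and was higher in 9 of 12 calves, and PGK1 shared 7, SLC2A3 and PFKFB3 6, PFKFB4, PKM, LDHA and HK1 5, SLC2A1 4, HK3 3 and HK2 2 of the 7 highest. With the 3 S100 genes left out of the sum, an alternative added after seeing the data, it was higher after heat in 8 of 12 calves in Takara and 10 of 12 in Lexogen. The 7 Takara libraries highest in that sum held 6 of the 7 highest of each of the 6 called genes and of HK1, 4 for HK3, 3 for SLC2A1 and 2 for HK2. How many of the 7 highest libraries other genes share with either sum was not computed. The part of the neutrophil markers in these results was not tested. In such bulk samples, fewer cells of a type and less RNA per cell cannot be told apart.

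**Figure D5:**
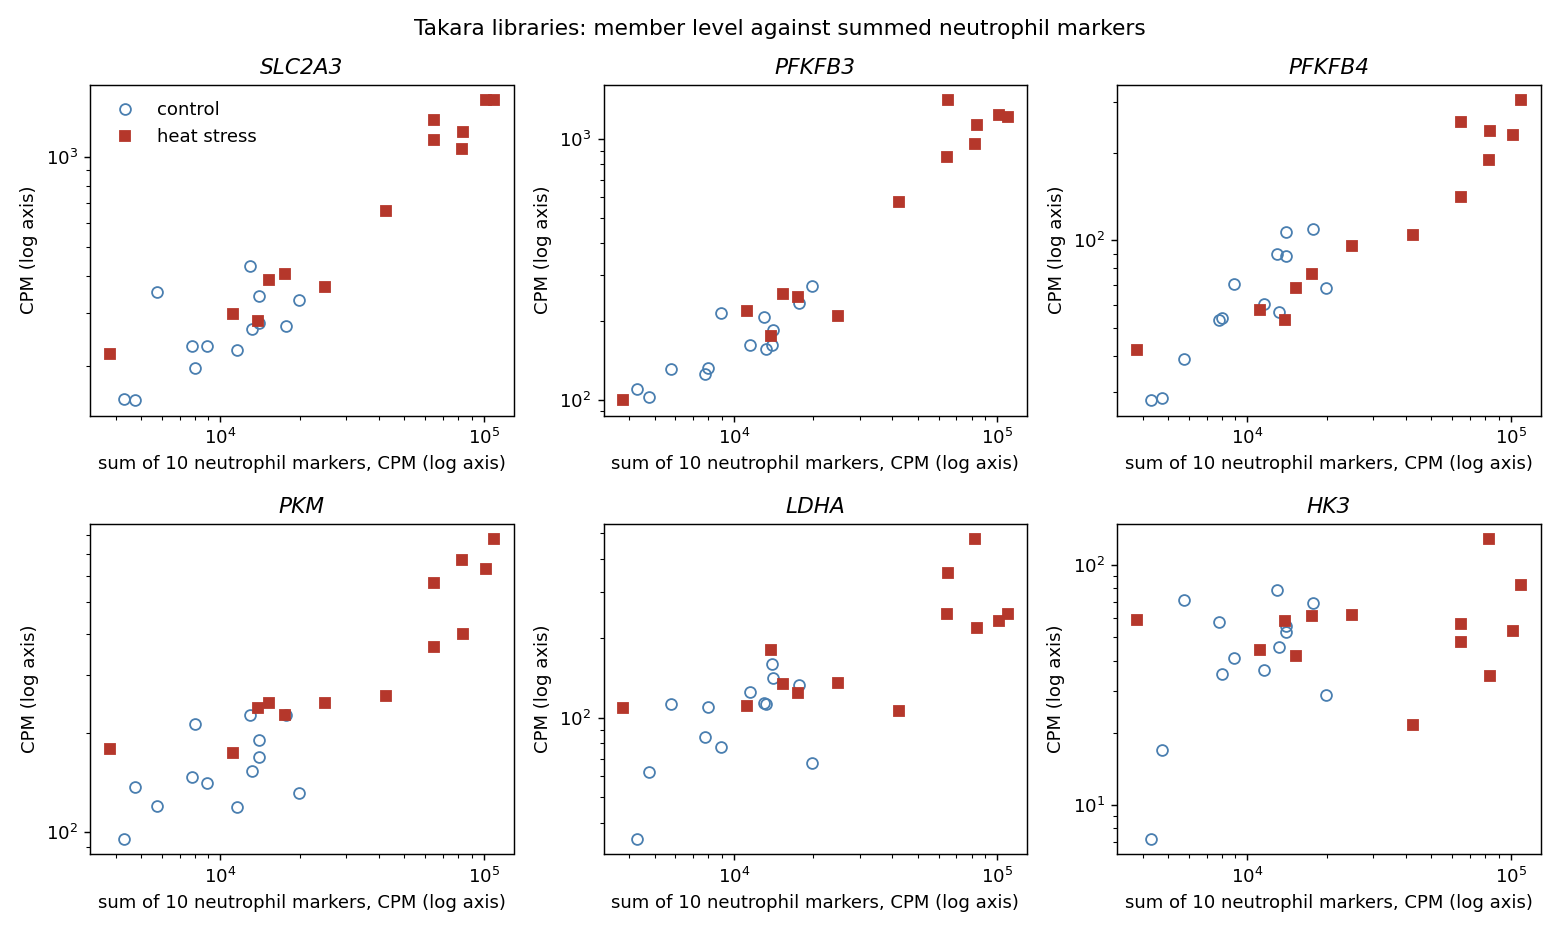
Level of 6 genes (vertical log axis, CPM) against the summed level of 10 neutrophil markers (horizontal log axis, CPM) in each Takara library, open circles for control and filled squares for heat stress. The 7 heat stress libraries at 42519 CPM or more on the horizontal axis hold the 7 highest heat stress values of SLC2A3, PFKFB3, PFKFB4 and PKM, while HK3 is spread over the whole range.

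Other cell types were followed with their own markers. Summed T cell markers had medians of 1486 CPM in control and 1038 CPM in heat stress in Takara, were higher after heat in 2 of 12 calves, and 4 of 7 were down-regulated. Of 5 B cell markers 1 was down-regulated, 2 of 5 monocyte markers were up-regulated, and 0 of 2 erythroid and 0 of 4 platelet markers tested were DEGs in Takara. In Lexogen 0 markers of these 5 cell types were DEGs by edgeR or DESeq2, while 2 monocyte, 1 T cell and 1 erythroid marker had an unadjusted p under 0.05 with edgeR. Their part in the results was not tested.

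The 2 runs were compared because their sample numbers lie apart. By edgeR 0 of the 10 genes passed the test of a run by time interaction in either kit. Over all genes 2.58% were called in Takara and 0.018% in Lexogen. In Takara 4 of the 10 had an unadjusted p under 0.05, against 2091 of all 12620 genes. In Lexogen 1 of the 10 had, against 883 of all 11108 genes. In Takara the largest difference, run 2 less run 1, was that of HK3, 1.38 on the log2 scale (SE 0.47, unadjusted p = 0.0065, adjusted p = 0.118, edgeR), and HK2, LDHA and HK1 had unadjusted p of 0.0385, 0.0423 and 0.0488. In Lexogen HK3 had 2.09 with an SE of 1.67 (unadjusted p = 0.219). LDHA was the Lexogen gene with an unadjusted p under 0.05, with a difference of 1.01 there (unadjusted p = 0.0357, adjusted p = 0.579) beside 0.97 in Takara. Within run 1 alone PFKFB3, SLC2A3 and PKM were DEGs in Takara, 3 of 10 against 20.6% of all genes tested. Within run 2 alone SLC2A3, PKM, PGK1, LDHA and PFKFB4 were, against 7.35% of all genes, while PFKFB3 had a log2 fold change of 1.84 (adjusted p = 0.0544). In thermoneutral control, 4.02% of genes differed between the runs in Takara, and HK1 was among them, 0.65 higher in run 2 (SE 0.17, adjusted p = 0.0314). By sense counts HK1 did not pass (0.21, adjusted p = 0.608) and HK3 did, with a log2 difference of -1.03 (run 2 over run 1, adjusted p = 0.0394).

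The kits were compared over 24 RNA samples with a library of each. None of the 10 genes differed between kits in its change with heat by edgeR, and 0 of 10 had an unadjusted p under 0.05. Over all genes 0% of 12447 were called, with 479 at an unadjusted p under 0.05. The smallest unadjusted p was that of SLC2A3 (0.0928). By sense counts 2 of the 10 had an unadjusted p under 0.05, against 593 of all 12115 genes. The levels themselves differed for 8 of 10 genes, against 72.3% of all genes. HK3 was higher in Takara by 3.68 on the log2 scale (SE 0.43, adjusted p = 7e-09, edgeR), HK1 by 2.18, PFKFB4 by 2.0 and PKM by 1.65. HK2 and PFKFB3 were lower in Takara, with log2 differences of -1.73 and -0.62. By sense counts the difference was 2.40 for HK3 and 0.69 for HK1. LDHA (0.19, adjusted p = 0.207) and SLC2A1 (-0.52, adjusted p = 0.267) did not pass.

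Other genes of glucose use were taken from 6 lists of known pathway members, also chosen with earlier results of these data known. Beside the counts below stand the shares over all genes tested. These were 18.4% up-regulated and 10.5% down-regulated in Takara, and 5.09% and 0.459% in Lexogen. Of 12 further glycolysis genes tested in Takara, 7 were up-regulated and 0 down-regulated, with a median log2 fold change of 0.40. GAPDH, the enzyme just before PGK1, had the largest change, 1.22 (SE 0.25, adjusted p = 0.00112, edgeR). In Lexogen 0 of 12 were DEGs by edgeR or DESeq2 and 1 had an unadjusted p under 0.05 with edgeR, and GAPDH had 0.77 (adjusted p = 0.461). Of 7 further glucose and lactate transporters 2 were up-regulated in Takara. SLC16A3 (MCT4), which exports lactate, had a log2 fold change of 1.72 in Takara (adjusted p = 0.000412) and 2.21 in Lexogen (adjusted p = 0.00193), and was higher in 11 of 12 calves in each kit.

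The next list held 11 genes of pyruvate uptake into mitochondria and of pyruvate dehydrogenase and its control. In Takara 2 were up-regulated and 2 down-regulated, against 18.4% and 10.5% of all genes tested. The pyruvate dehydrogenase kinases, which inhibit pyruvate dehydrogenase, went both ways. PDK3 rose by 1.64 and PDK4 by 1.03 on the log2 scale (adjusted p = 0.000577 and 0.00353, edgeR), while PDK1 had a log2 fold change of -0.61 (adjusted p = 0.00613) and was lower in 12 of 12 calves. In Lexogen 1 of the 11, PDK3, was up-regulated (1.49, adjusted p = 0.0275).

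In the pentose phosphate branch, which makes NADPH, 5 of 7 genes were up-regulated in Takara and 3 of 7 in Lexogen. TKT, transketolase, had the largest change among them, 1.33 in Takara and 1.21 in Lexogen (adjusted p = 0.000924 and 0.00764, edgeR). Of 9 genes of glycogen metabolism 6 were up-regulated in Takara and 2 in Lexogen. GYS1, glycogen synthase, had 2.08 and 2.06 (adjusted p = 0.000566 and 0.00829).

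Of 11 genes of the HIF pathway, which raises glycolysis genes when oxygen is low, 7 were up-regulated in Takara and 3 of 9 in Lexogen. DDIT4, a HIF and glucocorticoid target that restrains mTOR, had the largest change, 2.78 in Takara and 2.45 in Lexogen (adjusted p = 0.000318 and 0.0016, edgeR). HIF1A itself had 0.31 in Takara (adjusted p = 0.0199, and 0.27 with an adjusted p of 0.0882 in the block model) and -0.07 in Lexogen (adjusted p = 0.923).

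In the block model the Lexogen calls of the pyruvate, pentose phosphate, glycogen, HIF and neutrophil lists were all lost, and SLC16A3 was still called (adjusted p = 0.0345, edgeR). In Takara the block left 5 of the 9 glycogen and 6 of the 11 HIF genes up-regulated, and HIF1A was the HIF gene that lost the call.

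The scaling bore on the lists. With total counts as library size the median log2 fold change of all Takara genes moved from -0.05 to -0.27, and up- and down-regulated DEGs changed from 2325 and 1321 to 1301 and 2184. The 6 genes called in Takara stayed up-regulated, between 0.50 for PGK1 and 1.54 for PFKFB3. The further glycolysis genes then had 4 up-regulated and 1 down-regulated, and HIF1A had 0.05 (adjusted p = 0.721). Up-regulated genes went from 5 to 3 of 7 in the pentose phosphate list, from 6 to 4 of 9 in the glycogen list and from 7 to 5 of 11 in the HIF list in Takara. Of the T cell markers 7 of 7 were then down-regulated, while 8 of 9 neutrophil markers were up-regulated. In Lexogen the pentose phosphate list went from 3 to 2, glycogen from 2 to 1, HIF from 3 to 2 and neutrophil markers from 6 to 5.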

How the data were processed

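Gene counts of 54 3′ mRNA-Seq libraries from 15 calves were analysed. Trimming was by Trimmomatic 0.39 and alignment to ARS-UCD2.0 by STAR 2.7.10b, and the authors deposited raw counts per gene of reads with a unique position, in unstranded, sense and antisense columns, per the study's methods and the submitters' processing notes. The column they analysed is not named, and the unstranded column was used here. The 4 rows of totals above the genes held 32.2% to 57.9% of a library's reads and were left out of library sizes.

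Counts were filtered with filterByExpr, scaled with TMM and tested with edgeR 4.0.16 (R 4.3.3), quasi-likelihood with Benjamini-Hochberg adjustment over all genes. The main model held time alone. Pair changes used log2(CPM + 0.5). Ratios were tested with exact two-sided sign changes. Same-numbered libraries are the same animal. Gene levels centred on the time correlated above 0.1 between times for 11 of 12 Takara and 2 of 12 Lexogen pairs (medians 0.232 and 0.0208). Symbols and positions came from RefSeq, with 30271 gene IDs matched. The text names all 10 genes, the DEGs with the largest positive and negative change of each pathway list in Takara, and LDHB, GAPDH, HIF1A, SLC16A3 and PDK4. Of the genes this rule names, 1 is not reported here. The members and lists were chosen with earlier results of these data known. DESeq2 1.42.0 was an alternative, as were 10 others, and 4 were added after seeing the data. The scripts' tests were tested on simulated data. The median standard error was 0.185 in Takara and 0.417 in Lexogen. Without molecular identifiers, reads cannot be taken as separate molecules. The libraries of a group come from separate calves.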

Additional observations from a re-analysis of the deposited data

Results flagged for a closer look

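The libraries of animal 20 were in no comparison of the times, and several of the genes were above every thermoneutral control library there. In its Takara library SLC2A3 stood at 1912 CPM, PFKFB3 at 1307 CPM, PFKFB4 at 295 CPM, PGK1 at 858 CPM, PKM at 529 CPM and LDHA at 212 CPM. The highest control values were 430, 273, 110, 340, 227 and 160 CPM in the same order. SLC2A3 and PGK1 were also above every heat stress library. In its Lexogen library SLC2A3 stood at 731 CPM, PFKFB3 at 1293 CPM, PFKFB4 at 98.2 CPM, PGK1 at 234 CPM and PKM at 310.0 CPM. The summed neutrophil markers of these libraries were 109717 CPM in Takara and 37908 CPM in Lexogen, above every library used. The time of these libraries was not inferred from the values. SLC2A1, HK1, HK2 and HK3 were not above every control in either library. LDHA was not above every control in the Lexogen library, at 96.4 CPM against a highest control of 137 CPM.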

How the results depend on the processing

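Each gene had 14 alternatives per kit, and of 140 values per kit 122 in Takara kept direction and side of the threshold, while in Lexogen 8 lost the call, 4 gained it and 12 changed sign. The causes of the other shifts were not tested. With the animal as a replicate block Lexogen had 63 DEGs and 0 of the 10 genes. There 1584 genes had an unadjusted p under 0.05, with 2 of the 10 among them. SLC2A1, HK1 and HK2 had 0.37, -0.85 and 0.15. The block changed no other call of the 10 genes. Sense counts with the replicate block gave Lexogen 74 DEGs and 0 of the 10, with 0.44, -0.27 and 0.11 for those genes, and HK1 -0.066 in Takara. With animal 20 as thermoneutral control, Takara had 0 DEGs (3804 at an unadjusted p under 0.05) and 0 of the 10 genes, Lexogen had 2 DEGs and 0 of the 10, and HK2 had 0.014 in Lexogen. Run 1 alone gave 3 of the 10 in Takara, with SLC2A1, HK2 and HK3 at -0.18, -0.25 and -0.25, and 402 Lexogen DEGs, with HK3 -0.21 and LDHA -0.16. Run 2 alone gave 931 Takara DEGs, with HK1 -0.14, and 0 Lexogen DEGs (1275 at an unadjusted p under 0.05) and 0 of the 10 (5 at an unadjusted p under 0.05), with HK2 0.050. Total counts as library size put SLC2A1, HK1 and HK2 at -0.068, -0.19 and -0.0024 in Takara. Without animal 15 HK2 had 0.027, without animal 36 there were 348 DEGs, and without animal 19 SLC2A1 had 0.72, all in Lexogen. Without a low count filter Lexogen had 3273 DEGs, and DESeq2 on all expressed genes gave 1006. Time effects that differed between runs were 146 in Takara and 0 in Lexogen without the filter, and 4 in Lexogen with sense counts. With a pseudocount of 5 CPM the PFKFB4 to PFKFB3 ratio changed by -0.29 in Lexogen (adjusted p = 0.755), against 0.0089 with the main pseudocount. Depth limits SLC2A1 in Lexogen, where 1 library had no count in either column, which allows up to 0.664 CPM (3 counts of the total, counting error only). The 4 unstranded counts of 0 of HK1 and HK3 stood beside 3 to 40 sense counts.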
